A study of Mus musculus with 35 samples.

Results

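The collagen chains are the genes of the deposited table whose symbol has the form Col, a type number, a and a chain number. There are 44 such genes among 21203, and all 44 passed the filter on low counts that left 17131 genes for testing. They were divided by the assembly that the protein forms into 11 fibrillar chains, 8 basement membrane chains and 25 other chains. The libraries came from tissue cut around the injection site in the left hemisphere of 34 C57BL/6NCrl mice, with 1 library per mouse, and the labels name the tissue left cortex. Per the study's methods the mice were male and 8 to 9 weeks old when procedures began. Injured mice received a closed head injury, in which the skull is struck without being opened, and on day 5 the left hippocampus was injected with PBS, with MSCs or with IL-4 MSCs. MSCs are mesenchymal stromal cells, here a commercial lot from C57BL/6N mice, and IL-4 MSCs are the same cells transfected with synthetic mRNA for the cytokine interleukin-4. Tissue was taken at 1 week post-injury (1 wpi), 2 days after treatment, or at 3 wpi, 16 days after treatment. Sham mice were neither hit nor treated. Their 5 libraries, 2 from week 1 and 3 from week 3, form a single group. Each other group had 5 mice, except PBS at 3 wpi with 4. Injected cells and hosts are of like strain, so their collagen transcripts cannot be told apart in the counts.

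Collagens are proteins of the extracellular matrix built from 3 chains wound into a triple helix. Fibrillar collagens such as types I, III and V form the fibrils of scars and connective tissue, and type IV collagen forms the sheet-like network of basement membranes, which in brain surround blood vessels and line the pial surface. Type VI collagen forms beaded filaments next to cells, and FACIT collagens attach to the surface of fibrils. Healthy brain parenchyma holds little fibrillar collagen, most of it in the meninges and around larger vessels, and fibroblasts and other stromal cells are its usual sources. MSCs in culture are known to make types I, III and VI.

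Promoter sequences of 35 of the 44 chains were found in the RefSeq table for GRCm38.p6. Col26a1, Col12a1, Col2a1, Col14a1, Col1a1, Col5a2, Col4a3, Col9a3 and Col22a1 were not matched. Printed here are the bases before the start of 4 chains that the comparisons turn on, Col3a1 and Col6a3, which were higher with both kinds of cells than with PBS, and Col6a6 and Col7a1, which were higher with IL-4 MSCs than with MSCs. They are read 5′ to 3′ on the strand of the gene, and capitals mark matches, on either strand, to one of 3 promoter motifs. The TATA box was searched as TATAAA. The second motif was the CCAAT box. The GC box was searched as GGGCGG. The Col6a6 sequence stops where an annotated exon begins.
Col3a1, chr1:45311288-45311537, plus strand: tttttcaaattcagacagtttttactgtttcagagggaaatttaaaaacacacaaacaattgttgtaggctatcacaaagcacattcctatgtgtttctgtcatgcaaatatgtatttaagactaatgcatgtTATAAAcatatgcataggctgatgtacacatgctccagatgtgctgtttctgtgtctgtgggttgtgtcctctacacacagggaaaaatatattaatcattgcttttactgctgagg
Col6a3, chr1:90843972-90844221, minus strand: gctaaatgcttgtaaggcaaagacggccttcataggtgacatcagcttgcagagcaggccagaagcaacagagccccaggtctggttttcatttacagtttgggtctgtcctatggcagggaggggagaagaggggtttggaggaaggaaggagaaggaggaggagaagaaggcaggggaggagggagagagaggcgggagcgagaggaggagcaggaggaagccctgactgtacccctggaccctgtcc
Col6a6, chr9:105828161-105828335, minus strand: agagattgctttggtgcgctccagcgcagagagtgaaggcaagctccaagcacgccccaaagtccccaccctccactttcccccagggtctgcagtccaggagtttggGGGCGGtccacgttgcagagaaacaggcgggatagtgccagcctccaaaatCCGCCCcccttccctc
Col7a1, chr9:108953336-108953585, plus strand: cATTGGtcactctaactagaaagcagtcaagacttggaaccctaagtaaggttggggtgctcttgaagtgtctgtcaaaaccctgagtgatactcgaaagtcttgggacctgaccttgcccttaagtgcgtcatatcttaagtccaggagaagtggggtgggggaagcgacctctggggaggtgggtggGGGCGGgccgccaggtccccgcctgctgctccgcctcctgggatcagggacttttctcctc

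Of these 4 sequences, that of Col3a1 held TATAAA, those of Col6a6 and Col7a1 held GGGCGG, that of Col7a1 also held CCAAT, and that of Col6a3 held none of these letters. Over the 250 bases before the start, GGGCGG was found in 57.9% of the 38 promoter entries of collagen chains and in 32.7% of the 32851 entries of all genes. The shares were 34.2% and 33.8% for CCAAT, and 13.2% and 12.4% for TATAAA. The STAT palindrome, TTC and GAA with 4 free bases between them, was found in 0 of the 38 collagen entries and in 5.85% of all entries. These are letter matches in a fixed window and were not tested further.

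The libraries held between 29838423 and 41554322 estimated counts. Levels are given as CPM, the counts scaled to a common library size, within a gene and as TPM, which also corrects for transcript length, between genes. The lowest count of any chain was 7, for Col10a1 in an IL-4 MSC mouse. Differences are log2 fold changes from edgeR's quasi-likelihood test with their standard error (SE), and a chain was counted as changed at a Benjamini-Hochberg adjusted p under 0.05 over all genes tested. Each mouse is a replicate, so p-values measure the spread between these mice. In bulk tissue, a higher number of cells of a type and more RNA per cell cannot be told apart. Summed markers of cortex were present in every library, between 1394 and 1819 CPM, and markers of hippocampus, thalamus and striatum were present as well.

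A sum of 10 posterior Hox genes, which mark cells from the trunk and limbs and are near silent in forebrain, was taken as a trace of the injected cells. It was 4.51, 4.64, 1.51, 3.95 and 2.56 CPM in the MSC mice at 1 wpi and 2.701, 4.75, 3.78, 4.55 and 2.75 CPM in the IL-4 MSC mice. In the other 24 libraries it lay between 0.819 and 1.94 CPM. The third MSC mouse was within that range, and the other 9 cell-treated mice at 1 wpi were above it. Hoxc10 had 0 counts in every Sham, PBS and 3 wpi library and was above 0 in all 10 cell-treated mice at 1 wpi. In 1 MSC mouse that was 1 count, under the 3 counts taken as the lowest detectable level. The 10 genes were not alike. Hoxa10 was at 0 in 1 MSC mouse at 1 wpi and Hoxb7 in 2. Mean Hoxa7 was 0.282 CPM in Sham and 0.225 CPM in MSCs at 1 wpi.

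**Figure D1:**
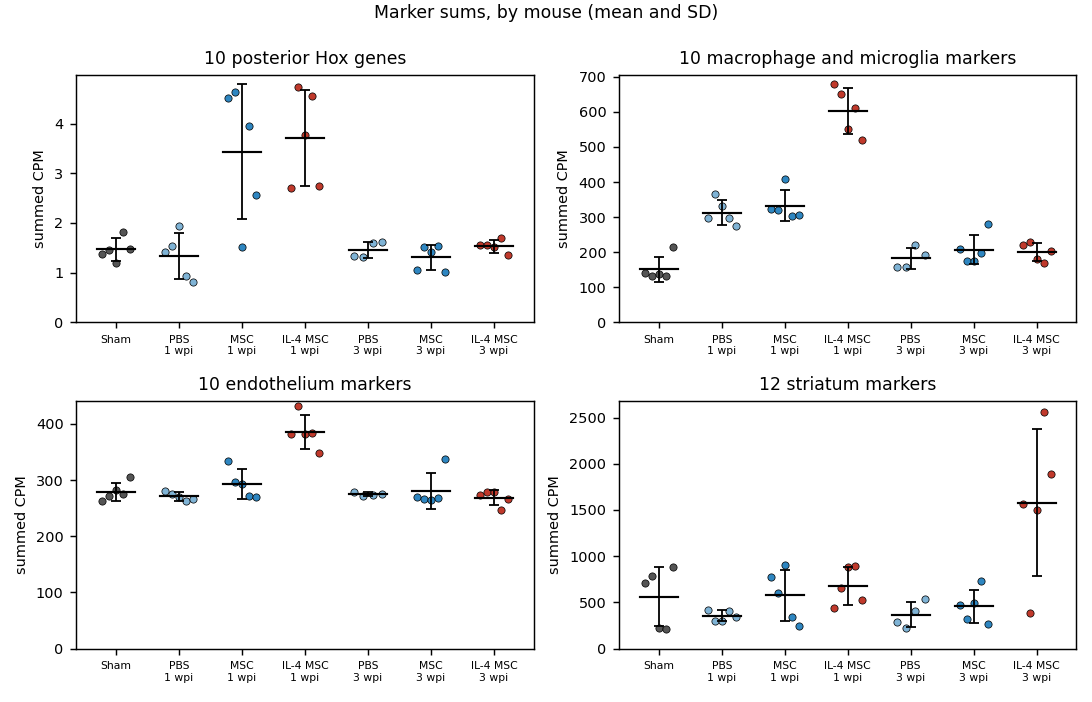
Summed CPM of 4 marker lists in each mouse (points), with the mean (line) and SD (error bar) of each of the 7 groups. The posterior Hox sum is raised in 9 of the 10 cell-treated mice at 1 wpi, the macrophage and endothelium sums stand highest in IL-4 MSCs at 1 wpi, and the striatum sum is 1504 CPM or more in 4 of the 5 IL-4 MSC mice at 3 wpi.

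The highest level in Sham was that of Col25a1, a transmembrane collagen of neurons, at 36.3 ± 5.87 TPM (SD, n = 5). It was followed by Col4a2 at 27.1 ± 1.70 and Col4a1 at 25.8 ± 3.76 TPM, the chains of the common type IV network, which did not differ beyond their spread. Col6a1 followed at 22.1 ± 1.06 TPM and Col16a1 at 18.3 ± 2.42 TPM. Col1a2 ranked 9 of 44 with 9.40 to 13.5 TPM in the 5 mice, Col1a1 ranked 17 at 6.17 ± 1.28 TPM and Col3a1 ranked 22 at 3.41 ± 1.14 TPM. The lowest chains were Col17a1 and Col10a1, at 0.255 and 0.323 TPM.

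The order changed in both cell-treated groups at 1 wpi. With MSCs the 3 highest chains were Col1a2, Col3a1 and Col1a1, at means of 52.8, 39.5 and 38.6 TPM. With IL-4 MSCs they were Col4a1, Col1a2 and Col3a1, at 43.3, 40.0 and 39.1 TPM. Fibrillar chains held 22.7% ± 1.65 of the summed collagen TPM in Sham (SD, n = 5), 24.7% ± 1.68 in PBS and, with MSCs and IL-4 MSCs, 39.4% ± 6.72 and 35.3% ± 1.79 at 1 wpi. The lowest MSC mouse had 30.3%, above the highest PBS mouse at 27.3%. At 3 wpi the 3 means lay between 22.8% and 24.2%. The summed level itself was 291 ± 21.1 TPM in Sham, 353 ± 36.8 in PBS and, with MSCs and IL-4 MSCs, 469 ± 82.9 and 476 ± 27.2 TPM at 1 wpi, and the shares of the classes were described and not tested.

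**Figure D2:**
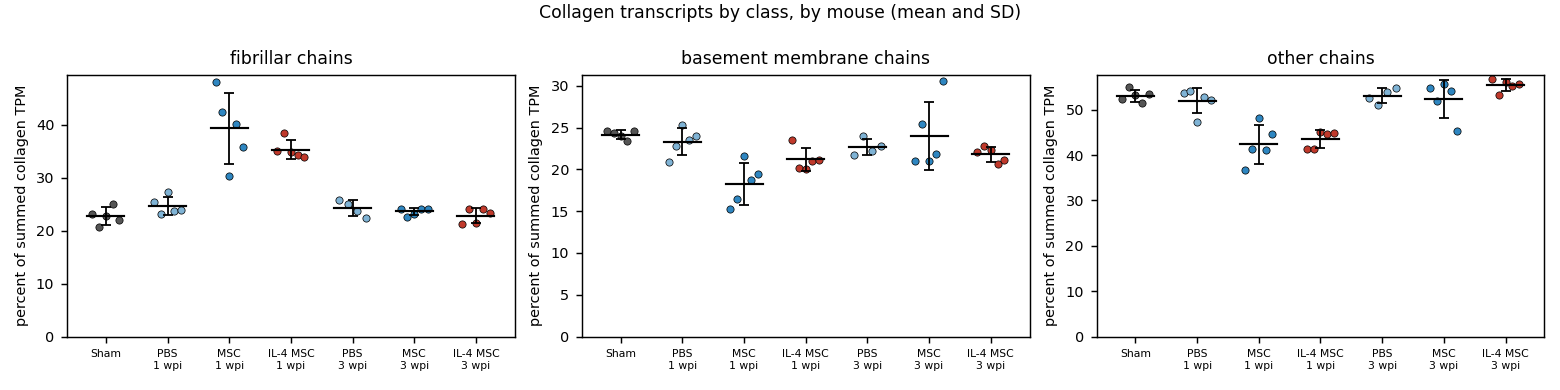
Percent of the summed collagen TPM held by fibrillar, basement membrane and other chains in each mouse (points), with the mean (line) and SD (error bar) of each group. The fibrillar share of all 10 cell-treated mice at 1 wpi, 30.3% or more, lies above that of the other libraries.

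Injury with PBS was compared with Sham at 1 wpi to see what the chains did without cells. Sham mice had no injection, so the head injury and the injection cannot be told apart in comparisons with Sham. Of the 44 chains, 9 rose and 0 fell, where 8.73% of all genes tested rose and 5.03% fell. They were 4 fibrillar chains (Col1a1, Col3a1, Col5a2 and Col5a3), 2 basement membrane chains (Col4a5 and Col4a6) and 3 FACIT chains (Col12a1, Col16a1 and Col20a1). The median log2 fold change was 0.24 over the chains and -0.005 over all genes. Col3a1, the chain of type III collagen, was at 6.95, 5.84, 7.52, 9.39 and 7.17 CPM in the Sham mice and at 17.2, 16.2, 37.8, 18.0 and 12.4 CPM in PBS. The groups did not overlap, and the third PBS mouse stood above the other 4. The log2 fold change was 1.41 (SE 0.33, adjusted p = 0.00292, edgeR). That of Col1a1 was 0.97 (SE 0.25, adjusted p = 0.00661), and Col1a2, its partner in type I collagen, was at 0.59 (SE 0.21, adjusted p = 0.0628).

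When the 2 Sham mice of week 1 alone were the reference, 4 chains were called, of which 3 were among the 9 above. Col3a1 and Col1a1 were no longer called (adjusted p = 0.0814 and 0.103) by the same test. Further calls were lost when single mice were left out. That of Col12a1 was lost without any of 8 of the 10 mice (adjusted p up to 0.144, without PBS replicate 3), that of Col5a2 without Sham replicates 1, 2 or 5 or PBS replicates 2 or 3 (up to 0.152), and that of Col20a1 without Sham replicates 2, 3 or 4 or PBS replicates 2 or 3 (up to 0.106). Summed markers of macrophages and microglia ranged from 131 to 215 CPM in Sham and from 274 to 366 CPM in PBS, 9 of 10 markers rising. None of 10 markers of meningeal fibroblasts changed, and their sum was 64.7 to 93.4 CPM in Sham and 72.3 to 78.0 CPM in PBS. The part of these cells in the result was not tested.

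With naive MSCs the chains of the scar collagens stood above their level with PBS. At 1 wpi 17 chains were higher in MSCs than in Sham and 0 were lower, where 11% of all genes were higher and 6.89% lower. Of these 17 calls, that of Col4a4 was lost without any of 6 of the 10 mice (adjusted p up to 0.186, edgeR). That of Col7a1 was lost without any of 3 (up to 0.0690). Against PBS 6 chains were higher and 0 lower. These 6, Col1a1, Col1a2, Col3a1, Col5a2, Col6a2 and Col6a3, were among 21 genes called in all, 0.123% of those tested, and each of the 21 was higher in MSCs. Of these chains 4 are fibrillar, 2 belong to type VI, and 0 of 8 basement membrane chains were called. The median log2 fold change against PBS was 0.28 over the fibrillar chains, 0.06 over the basement membrane chains, 0.05 over the others and 0.003 over all genes.

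Col3a1 (chr1:45311538-45349706, plus strand, GRCm38) was at 192, 117.5, 45.2, 92.5 and 54.9 CPM in the MSC mice. All 5 lay above the highest PBS mouse, at 37.8 CPM. The log2 fold change was 3.71 against Sham (SE 0.33, adjusted p = 3.27e-09, edgeR) and 2.29 against PBS (SE 0.30, adjusted p = 8.99e-05), a 4.90-fold difference.

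Col1a1 (chr11:94936224-94953042, plus strand) encodes the chain present in 2 copies in type I collagen. It was at 22.4, 13.4, 17.7, 19.8 and 14.1 CPM in Sham, at 30.8, 28.5, 56.0, 33.0 and 27.4 CPM in PBS, and at 186, 126, 59.2, 100.8 and 78.6 CPM in MSCs. The ranges of the 3 groups did not overlap. Against PBS the log2 fold change was 1.64 (SE 0.24, adjusted p = 0.000402, edgeR). Col1a2 (chr6:4504814-4541544, plus strand) followed it, from 38.0, 34.3, 60.3, 40.0 and 33.5 CPM in PBS to 214, 141.5, 62.5, 111 and 96.9 CPM in MSCs, at 1.59 (SE 0.21, adjusted p = 8.99e-05).

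Col5a2, a chain of the type V collagen found inside type I fibrils, was at 8.99, 13.9, 14.0, 9.26 and 9.70 CPM in PBS and 35.7, 23.2, 12.96, 24.6 and 18.1 CPM in MSCs. The groups overlapped through the third MSC mouse. The log2 fold change was 1.02 (SE 0.19, adjusted p = 0.00737, edgeR). The call was lost without PBS replicate 1 (adjusted p = 0.0521) or without MSC replicate 1 (0.0699). Its partner Col5a1 was at 0.33 (SE 0.11, adjusted p = 0.799).

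Of the 6 type VI genes, 2 were called between MSCs and PBS and 4 were not. Col6a2, which joins Col6a1 and a further chain in the type VI molecule, was at 18.0, 15.02, 21.9, 19.4 and 18.9 CPM in PBS and at 36.2, 33.8, 22.7, 26.9 and 29.8 CPM in MSCs. The groups did not overlap, and the log2 fold change was 0.67 (SE 0.10, adjusted p = 0.000723, edgeR). Col6a3, the largest chain of that molecule, went from 6.18, 6.45, 7.07, 6.16 and 5.51 CPM to 25.3, 17.7, 10.1, 13.8 and 10.4 CPM, at 1.29 (SE 0.26, adjusted p = 0.0308). Its call was lost without any of the 5 PBS mice or without MSC replicates 1, 2 or 4, and adjusted p was 0.310 without MSC replicate 1.

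**Figure D3:**
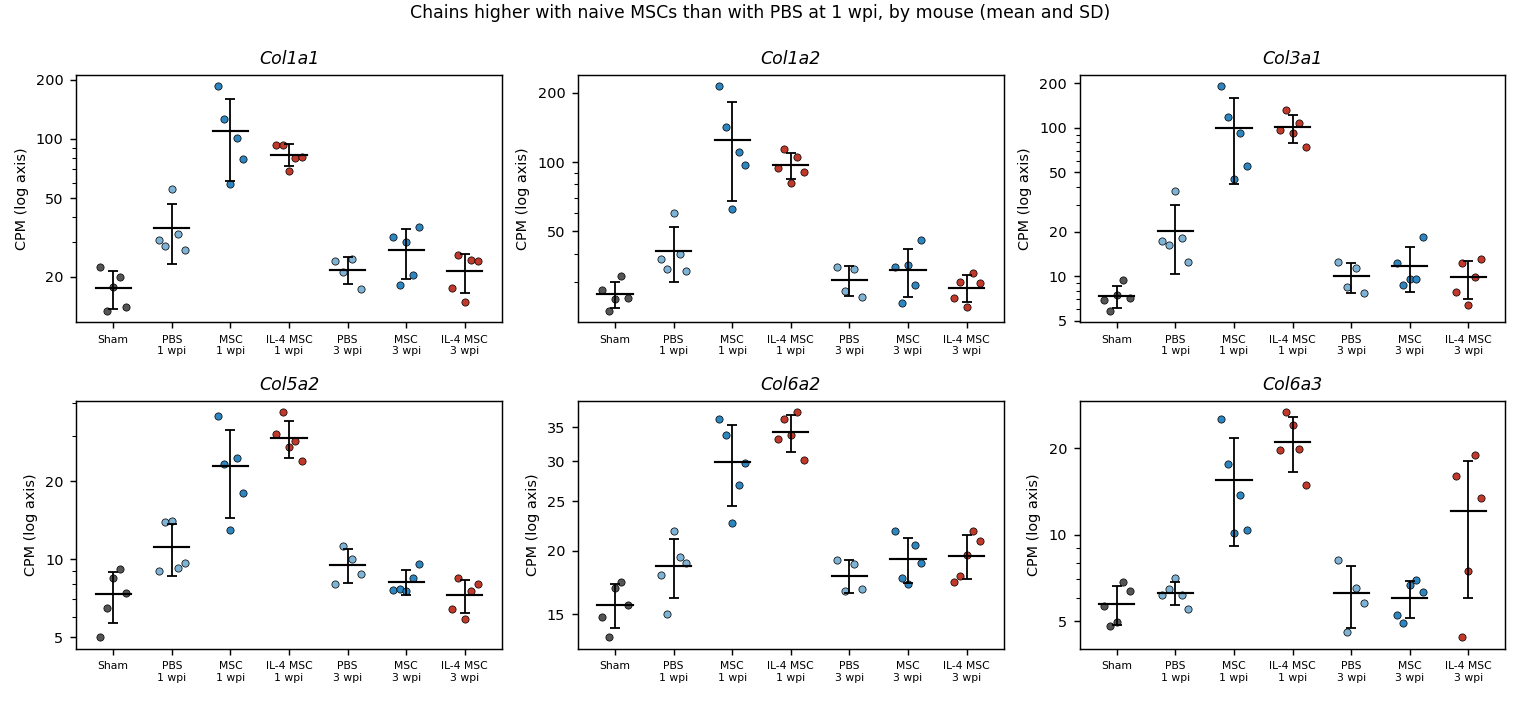
CPM on a log axis of the 6 chains called between MSCs and PBS at 1 wpi, in each mouse (points), with the mean (line) and SD (error bar) of each group. The third MSC mouse at 1 wpi is the lowest of its group in each panel and the first is the highest, and the groups at 3 wpi lie near Sham except for Col6a3 in IL-4 MSCs.

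Of the 5 MSC mice, the third was the lowest in all 6 chains and also had the lowest Hox sum. The first was the highest in all 6 with a Hox sum of 4.51 CPM, below the 4.64 CPM of the second. Of the IL-4 MSC mice at 1 wpi, the first had the lowest Hox sum, 2.701 CPM, and the highest Col1a1, 93.7 CPM. The second had the highest Hox sum, 4.75 CPM, and the highest Col1a2, Col3a1, Col5a2 and Col6a3. Col6a2 was highest in the fourth, with a Hox sum of 4.55 CPM. The part of the injected cells in these differences was not tested. Meningeal fibroblast markers summed to 67.1 to 82.1 CPM in MSCs, within the Sham range, and 1 of 10, Dpt, was higher than in PBS. The values of 5 of 44 chains did not overlap between MSCs and PBS, the same holding for 0.601% of all genes in that direction. The calls rested on the spread shared by all 34 libraries. With MSC and PBS libraries alone in the fit, 0 chains and 0 of all genes were called. Adjusted p was 0.247 for Col1a1, Col1a2, Col3a1 and Col6a3, 0.356 for Col6a2 and 0.653 for Col5a2 in that edgeR fit, with unchanged fold changes. DESeq2 on all libraries called 6 chains.

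More chains were called with IL-4 MSCs than with the other treatments. At 1 wpi 23 of 44 chains were higher than in Sham and 1, the FACIT chain Col19a1, was lower, where 37% of all genes were called, 18.4% higher and 18.5% lower. The 23 were 7 of 11 fibrillar, 6 of 8 basement membrane and 10 of 25 other chains, 5 of the 6 type VI genes among the latter. Against PBS 12 chains were higher and 0 lower, where 11.2% of all genes were higher and 6.16% lower. These were 6 fibrillar chains (Col1a1, Col1a2, Col3a1, Col5a1, Col5a2 and Col27a1), Col4a1, 4 type VI chains (Col6a1, Col6a2, Col6a3 and Col6a6) and Col7a1. The call of Col19a1 against Sham was lost without Sham replicate 3 or IL-4 MSC replicates 1, 3 or 4 (adjusted p up to 0.0860, edgeR). Against Sham, that of Col18a1 was lost without any of 2 of the 10 mice (up to 0.0542). Those of Col6a5 and Col8a1 were each lost without any of 3 (up to 0.0843 and 0.108). That of Col5a1 against PBS was lost without PBS replicates 1, 2 or 4 or IL-4 MSC replicate 2 (up to 0.0817).

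The scar collagens were near the level seen with naive MSCs. Col3a1 was at 96.7, 132.5, 92.0, 107 and 74.5 CPM and Col1a1 at 93.7, 93.4, 68.9, 80.0 and 80.6 CPM in the IL-4 MSC mice. Against PBS the log2 fold changes were 2.27 (SE 0.30, adjusted p = 1.06e-06, edgeR) and 1.21 (SE 0.24, adjusted p = 0.000318). Against MSCs they were -0.02 (SE 0.28, adjusted p = 0.984) and -0.43 (SE 0.23, adjusted p = 0.301), so that no difference was detected, with the standard error leaving room for one. The TPM ratio of Col3a1 to Col1a1 was 0.564 ± 0.164 in Sham, 0.662 ± 0.110 in PBS and, with MSCs and IL-4 MSCs, 0.990 ± 0.124 and 1.38 ± 0.294 (SD, n = 5 each).

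With IL-4 MSCs, 3 of 44 chains exceeded their level with MSCs, Col6a5, Col6a6 and Col7a1, and 0 were lower, where 8.69% of all genes were called, 7.66% higher and 1.03% lower. The share of chains called was near that of all genes. The MSCs of the comparison group were not transfected, so transfection and IL-4 cannot be told apart here. Col6a6 (chr9:105687809-105828160, minus strand), which can take the place of Col6a3 in type VI collagen, was at 1.31, 1.37, 1.45, 1.46 and 2.32 CPM in Sham, at 1.82, 1.52, 1.66, 1.95 and 1.28 CPM in PBS, and at 2.73, 1.87, 1.73, 1.33 and 0.864 CPM in MSCs. In IL-4 MSCs it was at 5.02, 4.37, 2.64, 3.19 and 3.18 CPM. The lowest IL-4 MSC mouse lay above every Sham and PBS mouse and below the highest MSC mouse. The log2 fold change was 1.08 against MSCs (SE 0.22, adjusted p = 0.000699, edgeR) and 1.13 against PBS (SE 0.22, adjusted p = 0.000306).

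Col6a5, its neighbour on chromosome 9 and a chain of the same kind, was at 1.87, 1.76, 1.79, 2.26 and 1.27 CPM in MSCs and 3.14, 2.88, 3.64, 2.51 and 3.46 CPM in IL-4 MSCs. The groups did not overlap, and the log2 fold change was 0.78 (SE 0.23, adjusted p = 0.0266, edgeR). PBS mice ranged from 1.74 to 2.90 CPM, and the difference of IL-4 MSCs from PBS was not called. Col7a1, which makes anchoring fibrils under epithelia, was at 4.97, 6.68, 6.28, 5.71 and 5.17 CPM in MSCs and 8.14, 8.37, 9.16, 7.76 and 5.10 CPM in IL-4 MSCs. The fifth IL-4 MSC mouse lay within the MSC range, and the log2 fold change was 0.40 (SE 0.13, adjusted p = 0.0499).

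The call of Col7a1 was lost without MSC replicates 1, 4 or 5 or without IL-4 MSC replicates 1, 2, 3 or 4 (adjusted p up to 0.148), and that of Col6a5 without MSC replicates 2 or 5 or IL-4 MSC replicates 3 or 5 (up to 0.0943). Without MSC replicate 5 or IL-4 MSC replicate 3, 1 of the 3 remained. With MSC and IL-4 MSC libraries alone in the fit, 6 chains were called, 5 higher and 1 lower, among 1625 of all genes. Only 2 of the 3 named chains were among them. The Hox sums of the 2 groups overlapped. Macrophage markers summed to 303 to 408 CPM in MSCs and 519 to 678 CPM in IL-4 MSCs, 8 of 10 markers rising, and the part of these cells was not tested.

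**Figure D4:**
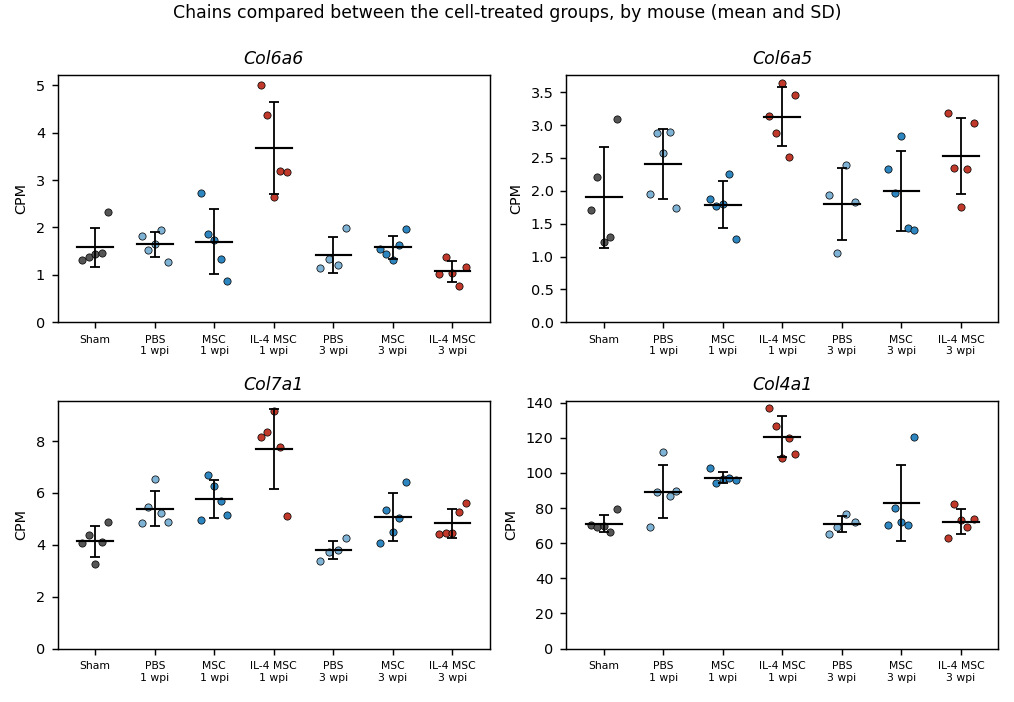
CPM of Col6a6, Col6a5, Col7a1 and Col4a1 in each mouse (points), with the mean (line) and SD (error bar) of each group on axes that start at 0. At 1 wpi the Col6a6 values of IL-4 MSCs, 2.64 to 5.02 CPM, lie above those of Sham and PBS, and Col4a1 lies above the MSC mice in all 5 IL-4 MSC mice.

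Of the 8 basement membrane chains 6 were higher with IL-4 MSCs than in Sham, with a median log2 fold change of 0.43, and the median over the 11 fibrillar chains was 0.41. Col4a1 (chr8:11198423-11312826, minus strand) was at 70.5, 69.3, 69.8, 66.5 and 79.4 CPM in Sham, 69.3, 89.2, 112, 86.8 and 89.7 CPM in PBS, 103, 94.4, 96.7, 97.0 and 95.8 CPM in MSCs and 137, 127, 108.5, 119.9 and 111 CPM in IL-4 MSCs. Against Sham it rose with MSCs by 0.41 (SE 0.11, adjusted p = 0.00896, edgeR) and with IL-4 MSCs by 0.69 (SE 0.11, adjusted p = 7.23e-06). The difference of IL-4 MSCs from PBS was 0.40 (SE 0.11, adjusted p = 0.0106) and from MSCs 0.29 (SE 0.11, adjusted p = 0.118). Col4a2 was at 98.8, 93.0, 97.8, 97.3 and 95.4 CPM in MSCs and 124.9, 115, 103, 111 and 101 CPM in IL-4 MSCs. Both chains were higher in each IL-4 MSC mouse than in each MSC mouse, as were 8.61% of all genes, although neither passed the test.

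Both genes start head to head on chromosome 8 and share 22 bases at their starts on opposite strands, where reads cannot be told apart without strand. The TPM ratio of Col4a1 to Col4a2 was 0.951 ± 0.1004 in Sham, 1.01 ± 0.105 in PBS and, with MSCs and IL-4 MSCs, 1.05 ± 0.0470 and 1.23 ± 0.0760 (SD, n = 5 each). In the intact molecule 2 copies of the Col4a1 chain join 1 of Col4a2. Markers of endothelium summed to 262 to 281 CPM in PBS, 270 to 334 CPM in MSCs and 348 to 432 CPM in IL-4 MSCs, 9 of 10 markers rising against PBS. Mural cell markers were 259 to 301 CPM in IL-4 MSCs and 276 to 300 CPM in PBS. The part of vascular cells in the type IV result was not tested.

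The X-linked pair Col4a5 and Col4a6, chains of a type IV network found in some specialised membranes, rose in all 3 injured groups at 1 wpi. Col4a6 was at 3.18, 2.61, 3.09, 3.03 and 3.20 CPM in Sham and at 3.86, 5.72, 4.25, 4.39 and 3.95 CPM in PBS without overlap. Its log2 fold change against Sham was 0.52 with PBS (SE 0.12, adjusted p = 0.00314, edgeR), 0.54 with MSCs (adjusted p = 0.00164) and 0.72 with IL-4 MSCs (adjusted p = 1.39e-05). Col4a5 was at 0.35, 0.39 and 0.46 in the same order, at adjusted p = 0.00262, 0.000679 and 2.72e-05. Neither was called between any treatments at 1 wpi. These 3 comparisons share the Sham mice.

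**Figure D5:**
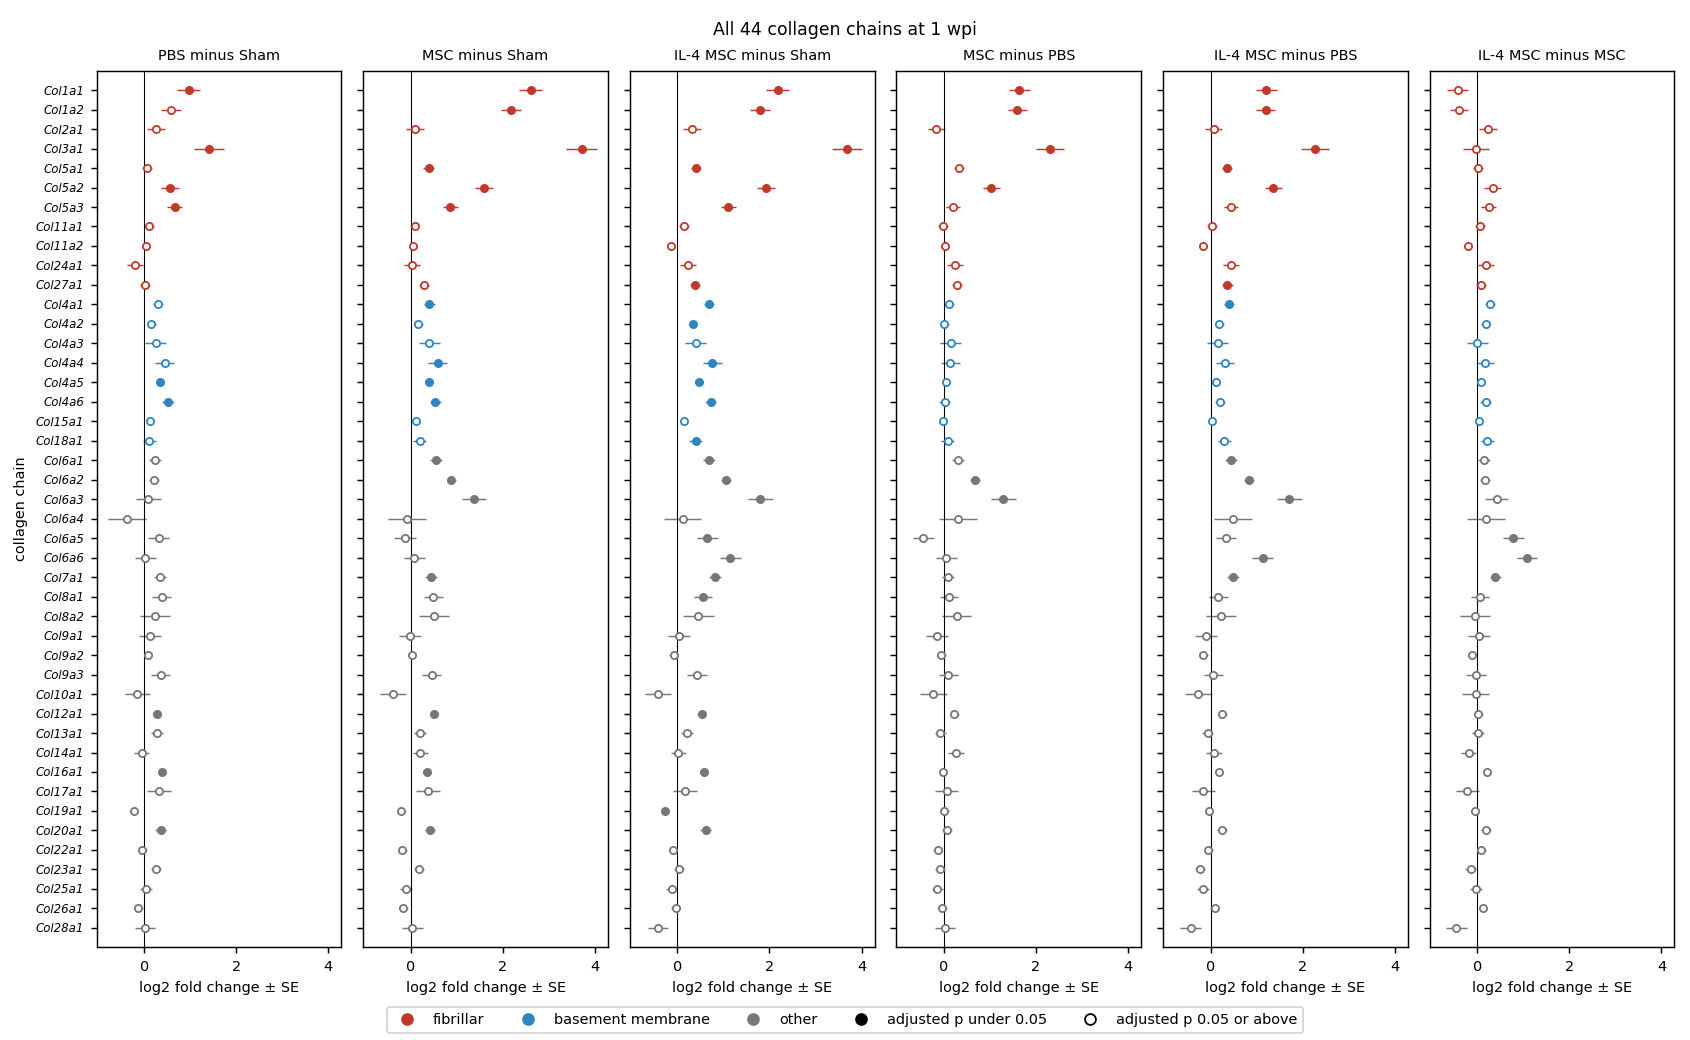
Log2 fold change with its SE of each of the 44 chains in 6 comparisons at 1 wpi, coloured by class. Filled points passed an adjusted p of 0.05, and Col3a1 has the highest value against Sham in each injured group, up to 3.71 in MSCs.

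In none of the 15 comparisons were 15 of the chains called, with log2 fold changes between -0.46 and 0.77. They were 3 fibrillar chains (Col2a1 and Col11a1, known from cartilage, and Col24a1), the basement membrane chain Col4a3, and Col6a4, Col8a2, Col9a2, Col9a3, Col10a1, Col13a1, Col14a1, Col22a1, Col25a1, Col26a1 and Col28a1. Summed choroid plexus markers ranged from 29.95 CPM in PBS replicate 2 of week 3 to 1539 CPM in MSC replicate 1 of week 1. In these mice Col8a2 was at 2.19 and 13.6 CPM and Col9a3 at 11.2 and 36.1 CPM, whereas Col22a1 and Col26a1 were lower in the latter. These chains were picked after their values were seen, and the part of choroid plexus was not tested. Col25a1, the most abundant chain of Sham, was at 91.6, 108, 80.9, 73.9 and 100.8 CPM in Sham, 98.0, 107.8, 98.2, 100.7 and 75.0 CPM in PBS, 96.6, 95.5, 90.1, 87.1 and 68.8 CPM in MSCs and 84.5, 85.1, 85.9, 92.0 and 89.9 CPM in IL-4 MSCs at 1 wpi, and the groups overlapped. Col16a1, a FACIT chain, rose in all 3 injured groups, from 26.7, 29.8, 28.2, 31.4 and 31.9 CPM in Sham to 47.7, 52.4, 43.9, 44.9 and 41.9 CPM in IL-4 MSCs, by 0.57 on the log2 scale (SE 0.08, adjusted p = 1.63e-06, edgeR).

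Of 31 genes that fold, modify and crosslink collagen, 12 rose against Sham with PBS, 16 with MSCs and 18 with IL-4 MSCs at 1 wpi, and 0, 0 and 1 fell. Of all genes 8.73%, 11% and 18.4% rose in these comparisons, and 5.03%, 6.89% and 18.5% fell. Between IL-4 MSCs and MSCs 12 of the 31 were higher and 0 lower, where 7.66% of all genes were higher and 1.03% lower, and the lists were not tested as groups. Lox, the enzyme that starts the crosslinks of fibrillar collagen, was at 0.947 to 1.33 CPM in Sham, 1.503 to 6.30 in PBS, 5.23 to 9.96 in MSCs and 15.6 to 35.7 in IL-4 MSCs. Its log2 fold change was 4.52 in IL-4 MSCs against Sham (SE 0.31, adjusted p = 4.02e-13, edgeR) and 1.86 against MSCs (SE 0.26, adjusted p = 4.37e-06). Serpinh1, the chaperone of procollagen, rose by 1.19 (SE 0.12, adjusted p = 1.18e-09) and P4hb, a subunit of the prolyl hydroxylase, by 0.54 (SE 0.04, adjusted p = 5.10e-12) against Sham.

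Of 10 collagen receptors 5 rose against Sham with PBS, 6 with MSCs and 5 with IL-4 MSCs, and 0 fell, where 8.73%, 11% and 18.4% of all genes rose and 5.03%, 6.89% and 18.5% fell. The same shares apply to the lists of partners. Lair1, an inhibitory receptor of leukocytes, rose with IL-4 MSCs by 1.16 (SE 0.08, adjusted p = 2.22e-13, edgeR), Itgb1, the shared subunit of the collagen-binding integrins, by 0.73 (SE 0.06, adjusted p = 1.86e-11), and Ddr2, a receptor tyrosine kinase for fibrillar collagen, by 0.59 (SE 0.08, adjusted p = 1.46e-07). Of 18 partners of the interstitial matrix 5, 12 and 13 rose in the same order, and 0, 0 and 1 fell. Tgfbi, Fn1 and Postn, which encode proteins that bind collagen, rose by 3.71, 2.09 and 2.57 in IL-4 MSCs against Sham, at adjusted p = 1.94e-12, 1.53e-11 and 3.65e-11. Of 16 partners of the basement membrane 3, 6 and 6 rose and 2 fell in each group, and in IL-4 MSCs the heparan sulfate proteoglycan gene Hspg2 rose by 0.98 (SE 0.13, adjusted p = 3.07e-07), Nid1 by 0.76 and the laminin gene Lamc1 by 0.29.

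Between MSCs and PBS, 1 of the 31 synthesis genes was called, Lox at 1.40 (SE 0.28, adjusted p = 0.0273, edgeR), with 0 of 10 receptors and 0 of 16 basement membrane partners. Of the 18 interstitial partners 3 were higher, Fbln2 at 1.61, Bgn at 0.84 and Thbs2 at 0.62 (adjusted p = 8.99e-05, 0.000437 and 0.0260), named here after their values were seen.

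Fewer chains were called against Sham at 3 wpi than at 1 wpi. In PBS 0 of 44 chains differed from Sham by edgeR, where 0.0233% of all genes were higher and 0.00584% lower. At an unadjusted p under 0.05 there were 3, and DESeq2 called 0. In MSCs 1 chain was higher, Col4a5, where 1.15% of all genes were called, 1.11% higher and 0.035% lower. In IL-4 MSCs 4 were higher and 0 lower, where 4.27% of all genes were called, 2.76% higher and 1.52% lower. At an unadjusted p under 0.05, 9 chains were higher in MSCs and 0 lower, and 13 were higher in IL-4 MSCs and 1 lower. Between MSCs and PBS 0 chains were called by edgeR and by DESeq2, with 6 at an unadjusted p under 0.05, where 0.0817% of all genes were higher and 0% lower.

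From 1 to 3 wpi 2 chains fell with PBS and 0 rose, where 5.51% of all genes were called, 4.9% lower and 0.613% higher. With MSCs 8 fell and 0 rose, where 6.15% of all genes were called, 4.93% lower and 1.22% higher. Of these falls, that of Col6a1 was lost without any of 8 of the 10 mice (adjusted p up to 0.145, edgeR). That of Col12a1 was lost without any of 4 (up to 0.138). With IL-4 MSCs 18 fell and 4 rose, Col9a1, Col11a2, Col17a1 and Col19a1, where 33% of all genes were called, 16.6% lower and 16.4% higher. The rises of Col9a1 and Col19a1 were each lost without any of 7 of the 10 mice (adjusted p up to 0.102 and 0.121) and that of Col17a1 without IL-4 MSC replicates 1, 3 or 5 of week 1 or replicate 3 of week 3 (up to 0.117). Among the falls with IL-4 MSCs, that of Col6a3 was lost without any of 3 mice (up to 0.0725) and that of Col5a1 without any of 2 (up to 0.108). Col3a1 fell by 3.06 on the log2 scale with MSCs (SE 0.32, adjusted p = 1.24e-07, edgeR) and with IL-4 MSCs by 3.28 (SE 0.32, adjusted p = 1.21e-09). At 3 wpi it was at 12.5, 8.47, 11.4 and 7.73 CPM in PBS, 12.3, 8.78, 9.61, 9.64 and 18.4 CPM in MSCs and 7.82, 12.4, 6.42, 9.93 and 13.02 CPM in IL-4 MSCs. Col1a1 at 3 wpi lay between 14.8 and 35.9 CPM in the 14 mice, which overlapped the Sham range of 13.4 to 22.4 CPM. The 2 chains that fell in PBS were Col7a1 and Col20a1, at -0.49 and -0.47 (adjusted p = 0.0337 and 0.0155). Leaving out PBS replicates 2 or 3 of week 1 or PBS replicate 1 of week 3 left 0 of these 2. Leaving out PBS replicates 2, 3 or 4 of week 3 left 1 of them. Without PBS replicates 1 or 5 of week 1, 5 and 4 chains were called.

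The difference between treatments was compared between the weeks in the same fit. For IL-4 MSCs against PBS it was larger at 1 than at 3 wpi in 6 chains and smaller in 0, where 4.72% of all genes were called, 3.93% larger and 0.788% smaller, and the 6 were Col1a1, Col1a2, Col3a1, Col5a2, Col6a2 and Col6a6. The values were 2.29 for Col3a1 (SE 0.46, adjusted p = 0.00199) and 1.51 for Col6a6 (SE 0.33, adjusted p = 0.00505, edgeR). For MSCs against PBS 0 chains and 0% of all genes were called by edgeR, 7 chains had an unadjusted p under 0.05, and DESeq2 called 3. Col3a1 was at 2.07 (SE 0.46, adjusted p = 0.311) there. Without PBS replicate 3 or MSC replicate 3 of week 1 the count was 2 or 3. For IL-4 MSCs against MSCs it was larger at 1 wpi in Col6a6 and Col16a1 and smaller in Col11a2, where 7.86% of all genes were called, 5.96% larger and 1.9% smaller. The call of Col11a2 was lost without any of 10 of the 20 mice (adjusted p up to 0.0810) and that of Col16a1 without MSC replicate 5 or IL-4 MSC replicate 2 of week 1 or IL-4 MSC replicates 1 or 4 of week 3 (up to 0.0565). That count was 1 without MSC replicate 5 of week 1 or IL-4 MSC replicate 4 of week 3, 5 without MSC replicate 4 of week 3 and 6 without IL-4 MSC replicate 2 of week 3.

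Single chains differed from Sham, PBS or MSCs at 3 wpi. Col4a5 was at 9.10, 7.07, 9.71, 10.95 and 10.5 CPM in MSCs, overlapping the Sham range of 6.88 to 7.50 CPM through the second mouse, at 0.39 (SE 0.08, adjusted p = 0.00860, edgeR). Without MSC replicate 5 adjusted p was 0.0668. With MSC and Sham libraries alone it was 0.209, and with the Sham mice of week 3 alone 0.0725. In IL-4 MSCs Col6a1, Col6a3, Col15a1 and Col17a1 were higher than in Sham. Against PBS Col6a1 and Col15a1 were higher and Col23a1 lower, where 2.94% of all genes were called, 2.17% higher and 0.776% lower. Against MSCs Col6a1 and Col6a3 were higher and 0 chains lower, where 3.47% of all genes were called, 2.29% higher and 1.18% lower.

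Col6a1 was at 46.4, 51.3, 58.7, 92.3 and 76.9 CPM in IL-4 MSCs and at 45.6, 40.5, 45.2 and 49.0 CPM in PBS at 3 wpi. The groups overlapped in 1 mouse. The log2 fold change was 0.61 against Sham (SE 0.13, adjusted p = 0.00635, edgeR) and 0.54 against PBS (SE 0.14, adjusted p = 0.0255). Col6a3 was at 16.0, 4.40, 7.47, 19.0 and 13.4 CPM in IL-4 MSCs, against 8.17, 4.57, 6.52 and 5.77 CPM in PBS and 5.24, 4.91, 6.68, 6.93 and 6.32 CPM in MSCs. It differed from Sham by 1.06 (SE 0.27, adjusted p = 0.0193) and from MSCs by 1.01 (SE 0.27, adjusted p = 0.0292). Both calls were lost without IL-4 MSC replicates 1, 4 or 5 (adjusted p up to 0.0947 against Sham and 0.172 against MSCs), the first also without Sham replicate 3 and the second without MSC replicates 1, 2 or 5.

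Col15a1, a collagen of the outer basement membrane zone, was at 12.7, 12.2, 9.93, 10.7 and 10.7 CPM in IL-4 MSCs and 9.60, 8.50, 9.53 and 9.31 CPM in PBS at 3 wpi. The groups did not overlap, and the log2 fold change was 0.29 (SE 0.07, adjusted p = 0.0148, edgeR). Col23a1, a transmembrane collagen, was at 14.9, 12.4, 11.2, 12.9 and 13.5 CPM against 18.8, 18.0, 16.8 and 17.0 CPM without overlap, at -0.43 (SE 0.12, adjusted p = 0.0419), a call lost without any of 7 of the 9 mice (up to 0.148). The call of Col15a1 against PBS was lost without PBS replicate 2 (0.0600). Against Sham Col15a1 was at 0.23 (SE 0.06, adjusted p = 0.0366), and that call was lost without any of 7 of the 10 mice, Sham replicates 1, 3 or 4 or IL-4 MSC replicates 1, 2, 4 or 5 (up to 0.129). Col17a1, the transmembrane collagen of hemidesmosomes, was near 1 CPM, at 1.01, 1.19, 1.69, 0.993 and 1.28 CPM in IL-4 MSCs against 0.682, 0.922, 0.557, 0.433 and 0.763 CPM in Sham. Its log2 fold change was 0.87 (SE 0.25, adjusted p = 0.0409), and this call was lost without any of 6 of the 10 mice (up to 0.141).

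Markers of striatum summed to 1563, 381, 1504, 2564 and 1887 CPM in the IL-4 MSC mice at 3 wpi and to at most 904 CPM in every other library. The second of these mice had the lowest marker sum and the lowest Col6a3, and the fourth had the highest marker sum, Col6a3 and Col6a1. Other values went differently. Col6a1 was lowest in the first mouse, at 46.4 CPM, and was at 51.3 CPM in the second. The third mouse, with a marker sum of 1504 CPM, had 7.47 CPM of Col6a3, below the highest PBS mouse at 8.17 CPM. With the striatum score as a covariate, 0 chains were called between IL-4 MSCs and Sham, PBS or MSCs at 3 wpi. Of all genes, 126, 10 and 2 were called there, where the main fit called 732, 504 and 594. Against Sham, Col6a3 was at 0.60 (adjusted p = 0.445) and Col6a1 at 0.50 (adjusted p = 0.122) by edgeR with this covariate. With only the compared groups in the fit 0 chains were called in all 3 comparisons, where 102, 0 and 0 of all genes were called. Col6a1 was no longer called against PBS or against MSCs without IL-4 MSC replicate 4 (adjusted p = 0.147 and 0.190) and without several other mice. The count against Sham fell from 4 to 1 without Sham replicate 3 or IL-4 MSC replicates 4 or 5, and to 2 without Sham replicates 1 or 4 or IL-4 MSC replicate 1. Against PBS it was 7 without IL-4 MSC replicate 2, 0 without PBS replicate 2 and 1 without PBS replicates 1 or 3 or IL-4 MSC replicates 4 or 5. Against MSCs it was 0 without MSC replicate 5 or IL-4 MSC replicates 4 or 5 and 1 without MSC replicates 1, 2 or 3 or IL-4 MSC replicate 1. How far the tissue sampled made these differences was not tested.

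Over the 7 group means, the genes whose log2 CPM was most like that of Col1a1 were Bgn (Pearson's r = 0.996), Col1a2 (0.996), Mdfi (0.994), Col3a1 (0.991) and Gm5617 (0.991). Those most like Col4a1 were Shc1, Wwtr1, Ccnd3, Msrb1 and Gng12, with r between 0.996 and 0.997. These are descriptions over 7 points that share the Sham group and the same libraries. Chains that lie next to each other in the genome did not always change together. Col3a1 and Col5a2 lie tail to tail on chromosome 1, 24614 bases apart, and were called together in all 3 injured groups at 1 wpi, whereas of the trio Col6a4, Col6a5 and Col6a6 on chromosome 9 the first was called in no comparison.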

How the data were processed

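RNA of 35 mice was sequenced as paired ends, and 34 libraries were analysed here. Per the study's methods, adapters were removed by the authors (cutadapt 2.4), reads were pseudoaligned by kallisto 0.46 against GENCODE transcripts of protein-coding genes, and 1 PBS library of week 3 was excluded. The deposited table holds estimated counts per gene, not normalized, and TPM values, both computed by the authors. Its 63 columns of the authors' own comparisons (effect sizes, p-values and q-values from sleuth 0.30) were not used.

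The estimated counts were rounded, and CPM is the count scaled to the library's total. A single edgeR 4.0.16 fit (R 4.3.3) of all 34 libraries used TMM factors and filterByExpr, with Benjamini-Hochberg adjustment over 17131 genes in each of 15 comparisons and 3 interaction tests, all two-sided. The fit was tested on simulated counts. Libraries of a group correlated at r between 0.982 and 0.996 in 66 pairs, and none was a duplicate. Shared replicate numbers were not taken to pair the mice. The labels also carry a number that all mice of a treated group share, and whatever it stands for cannot be told apart from the treatment. A count of 3 was taken as the lowest detectable level, which covers counting error only. The alternatives were RLE factors, DESeq2 1.42.0, no filter, the compared groups alone, each mouse left out, a replicate block, a fold limit, striatum or choroid plexus scores as covariates, and Sham mice of the same week.

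Members, gene lists and tests were chosen with earlier results of these data known. Mice are shown by value for the 4 chains of each class with the smallest adjusted p, the most abundant chain of each class and the chains of comparisons with 5 or fewer calls. Of the lists of synthesis genes, receptors and matrix partners, the 3 genes with the smallest adjusted p in IL-4 MSCs against Sham are named. The marker lists are mainly described by sums and counts, which can hide markers that change in opposite directions. Gene positions are from GENCODE M21 (GRCm38) and promoters from RefSeq (GRCm38.p6).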

Additional observations from a re-analysis of the deposited data

Results flagged for a closer look

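In 9 of 147 combinations of a named chain and a group, a mouse stood apart from the others of its group by Dixon's criterion at 95%, which chance alone gives in about 1 of 20. PBS replicate 3 of week 1 was high in 3 chains, with 37.8 CPM of Col3a1, 56.0 CPM of Col1a1 and 60.3 CPM of Col1a2, and PBS replicate 2 of week 1 was high in Col4a6 (5.72 CPM) and Col4a5 (10.8 CPM). MSC replicate 5 of week 3 was high in Col4a1 (120.6 CPM) and Col20a1 (7.81 CPM), and MSC replicate 3 of week 3 was low in Col6a1 (43.5 CPM). Sham replicate 5 was high in Col6a6 (2.32 CPM).

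The effect of IL-4 MSCs relative to PBS depended on the week in 6 chains by edgeR's interaction test. Week 1 minus week 3, it was 2.29 for Col3a1 (adjusted p = 0.00199), 1.74 for Col5a2 (adjusted p = 0.000147), 1.51 for Col6a6 (adjusted p = 0.00505), 1.30 for Col1a2 (adjusted p = 0.00930), 1.24 for Col1a1 (adjusted p = 0.0341) and 0.70 for Col6a2 (adjusted p = 0.00446) on the log2 scale. The call of Col1a1 was lost without any of 9 of the 19 mice, at adjusted p up to 0.0796 without PBS replicate 3 of week 3. Between IL-4 MSCs and MSCs it was 1.63 for Col6a6 (adjusted p = 0.00103), 0.41 for Col16a1 (adjusted p = 0.0279) and -0.38 for Col11a2 (adjusted p = 0.0324). The last 2 were lost with the striatum score as a covariate, at adjusted p = 0.0621 and 0.0731.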

How the results depend on the processing

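Of 122 chain results called, DESeq2 kept 122, RLE factors 121, no filter 118, the replicate block 114 and 87 held without each mouse in turn, and none changed direction. The count of changed chains moved by over 1.5 times as follows, in edgeR unless named. With a log2 fold change of at least 1 required, counts against Sham were 1 with PBS, 5 with MSCs and 8 with IL-4 MSCs at 1 wpi, and 0 with MSCs and 1 with IL-4 MSCs at 3 wpi. IL-4 MSCs had 6 against PBS and 1 against MSCs at 1 wpi, and 0 and 1 at 3 wpi. Between the weeks there were 0 with PBS, 5 with MSCs and 5 with IL-4 MSCs, and 1 in the interaction of IL-4 MSCs and MSCs. With only the compared groups fitted, counts were 0 for MSCs and 0 for IL-4 MSCs against Sham at 3 wpi. At 1 wpi they were 0 for MSCs against PBS, with 0 of all genes, and 6 for IL-4 MSCs against MSCs. At 3 wpi IL-4 MSCs had 0 against PBS and 0 against MSCs, with 0 of all genes in both. PBS had 1 between the weeks. With Sham mice of the same week, PBS at 1 wpi had 4, MSCs at 3 wpi 0 and IL-4 MSCs at 3 wpi 1. The striatum covariate left 0 for IL-4 MSCs at 3 wpi against Sham, PBS and MSCs, where 126, 10 and 2 of all genes were called. It left 1 in the interaction of IL-4 MSCs and MSCs. The choroid plexus covariate left 2 for IL-4 MSCs against Sham at 3 wpi and 1 for PBS between the weeks. DESeq2 gave 5 for IL-4 MSCs against PBS at 3 wpi, 4 for PBS between the weeks and 3 for the interaction of MSCs and PBS. The cause of these shifts was not tested, beyond the stricter criterion or the fewer mice that a setting uses.

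The replicate block gave 2 for IL-4 MSCs against Sham at 3 wpi and moved no other count by over 1.5 times. In 0 of 21 pairs of groups did all same-numbered mice deviate together (r over 0.1), with r between -0.462 and 0.4. The numbers were treated as names, although this check cannot exclude a link between some of the mice.

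Leaving out each mouse, counts against Sham ranged from 6 to 10 with PBS, 15 to 18 with MSCs and 21 to 26 with IL-4 MSCs at 1 wpi, and 0 to 0, 0 to 1 and 1 to 5 at 3 wpi. MSCs against PBS gave 4 to 6 and 0 to 0 at 1 and 3 wpi, IL-4 MSCs against PBS 11 to 16 and 0 to 7, and IL-4 MSCs against MSCs 1 to 3 and 0 to 3. Between the weeks they were 0 to 5 with PBS, 6 to 8 with MSCs and 18 to 21 with IL-4 MSCs, and in the interactions 5 to 7 for IL-4 MSCs and PBS, 1 to 6 for IL-4 MSCs and MSCs and 0 to 3 for MSCs and PBS. Chains near 1 CPM, such as Col10a1 with 7 counts in 1 library, allow no small change to be seen.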
